A study of Mus musculus with 38 samples.

Results

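The sites described here are 13369 CREB-bound regions of isolated mouse hepatocytes, the main cell type of liver, that were absent from the CREB lists of whole liver. They were chosen by overlap of the authors' peak lists. A site of the CREB list of glucagon-treated hepatocytes was kept when it shared at least 1 base with a site of the untreated list and with a site of the glucagon plus corticosterone list, and with no CREB site of 24 h fasted or fed liver. They are called hepatocyte-only sites below, and they made up 47.4% of the 28229 sites of the glucagon list. Of the 19530 glucagon sites found in all 3 hepatocyte lists, 68.5% were hepatocyte-only, and the other 6161 overlapped a CREB site of at least 1 liver list. These 6161 sites are called liver-shared and serve for comparison. The name describes lists only, since a site missing from a liver list may still be bound there below the threshold of the caller.

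The study mapped proteins and a histone mark on chromatin by immunoprecipitation and sequencing in C57BL/6 mice, to follow how liver chromatin differs with fasting. Hepatocytes were isolated by collagenase perfusion and received 10 nM glucagon, or 10 nM glucagon plus 1.7 uM corticosterone, for 1 h, or were left untreated. Liver came from mice fasted for 24 h (for acetylation also 10 h) or fed. CREB was mapped in hepatocytes left untreated (1 sample), given glucagon (2 samples) or given glucagon plus corticosterone (2 samples), and in 24 h fasted and fed liver (3 samples each). The other lists used were of the glucocorticoid receptor (GR) in hepatocytes given both hormones (2 samples), of phosphorylated CREB in 24 h fasted and fed liver (3 samples each), and of acetylated lysine 27 of histone H3 (H3K27ac) in fed, 10 h fasted and 24 h fasted liver (3 samples each). Neither age nor sex of the mice is used here. Each group is represented by 1 list with 1 value per region, so there was no spread between replicates, no test between conditions was possible, and every difference below is one between lists. The lists give no read counts, so the depth behind them is unknown. The lists hold no expression values, so the labels liver and hepatocyte could not be checked against marker genes.

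CREB, the cAMP response element binding protein, is a transcription factor that sits on DNA also in resting cells. Glucagon raises cAMP in hepatocytes, protein kinase A then phosphorylates CREB, and the phosphorylated form recruits acetyltransferases of the CBP family, which can acetylate H3K27 at enhancers and promoters. GR is the nuclear receptor that binds corticosterone, the main glucocorticoid of mice, and both hormones rise in fasting and act on genes of glucose production. Isolated hepatocytes are cut off from the blood-borne hormones and the neighbouring cell types of liver, whereas the liver lists come from all cell types of the tissue together.

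The choice of the members fixed several of their properties, which are given as a description. Hepatocyte-only sites were weaker and narrower than liver-shared sites. Their median tag density, the highest read density that the authors' caller found in a region, was 11.1 in the glucagon list, against 26.6 for liver-shared sites and 10.5 for all sites of that list. Their median width was 612 bp, against 937 bp for liver-shared sites and 590 bp for all sites. The share of hepatocyte-only sites among the sites of all 3 hepatocyte lists was 89.5% in the least dense decile of the glucagon list and 91.5% in decile 3. It was 45.5% in decile 9 and 15.2% in the densest decile. In the densest decile, where the density was at least 35.0, there were thus 422 hepatocyte-only and 2348 liver-shared sites. The nearest CREB site of either liver list lay at a median distance of 35852 bp, and for 808 hepatocyte-only sites (6.04%) it lay within 1000 bp. Close to the limit of the rule, 75 hepatocyte-only sites had a liver CREB site at most 100 bp away, with a median density of 9.26 and 62 of them in an H3K27ac region. Just beyond the limit, 52 liver-shared sites had at most 100 bases in common with a liver site, with a median density of 8.97 and 49 of them in an H3K27ac region.

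The lists that the rule did not use divided the hepatocyte-only sites into 4 main kinds. H3K27ac without GR was found at 7812 sites (58.4%), and neither GR, H3K27ac nor phospho-CREB at 3353 sites (25.1%). GR together with H3K27ac was found at 1389 sites (10.4%) and GR without H3K27ac at 811 sites (6.07%), and the remaining 4 sites had phospho-CREB alone. Most hepatocyte-only sites therefore lay in chromatin that carries the active mark in whole liver, although no CREB site was listed there in liver. GR without H3K27ac was found at 118 of the 6161 liver-shared sites, against the 811 of 13369 hepatocyte-only sites. The 4 kinds were not counted for all sites of the glucagon list. Of all sites of the glucagon list, 61.2% lay in an H3K27ac region and 15.4% at a GR site. For liver-shared sites these shares were 88.1% and 19.0%, so neither overlap was particular to hepatocyte-only sites. Among hepatocyte-only sites, those with GR were the denser ones, with a median density of 16.8 where H3K27ac was absent and 15.5 where it was present. The median was 11.1 for sites with H3K27ac alone and 9.90 for sites in none of these lists. Sites with GR were also wider, with median widths of 769 bp without and 765 bp with H3K27ac. The median widths were 601 bp with H3K27ac alone and 571 bp in none of these lists.

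**Figure D1:**
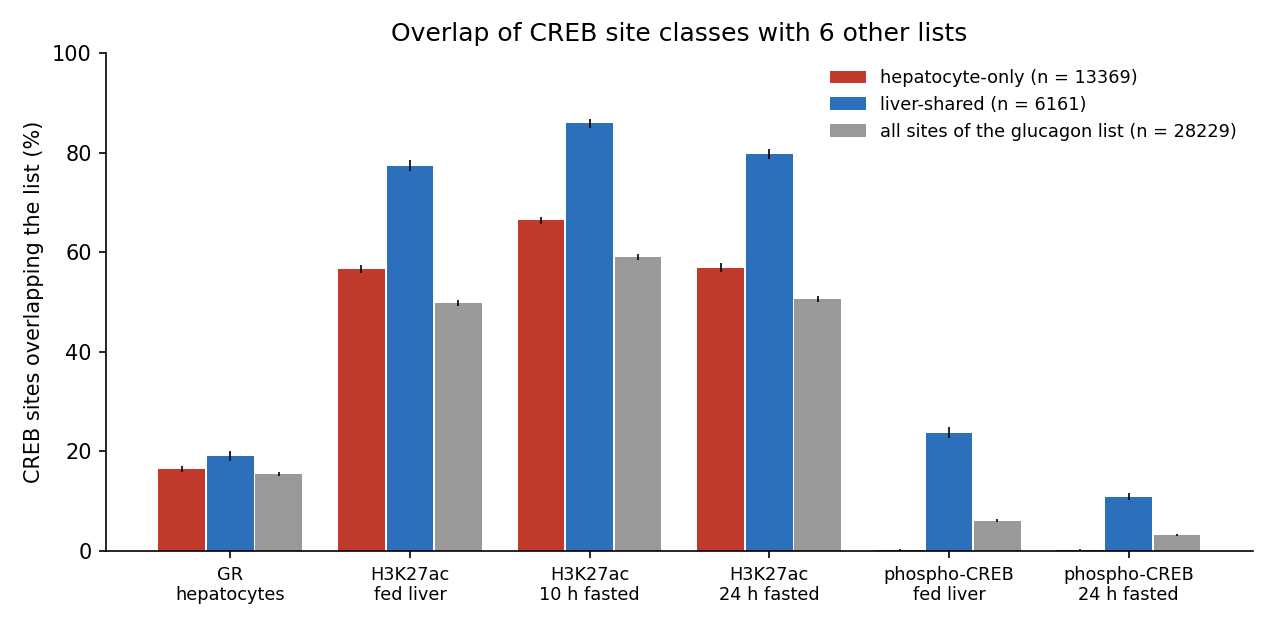
Percent of CREB sites that overlap each of 6 other lists, for hepatocyte-only sites, liver-shared sites and all sites of the glucagon list, with 95% Wilson intervals for counting error. Hepatocyte-only sites reached 56.7 to 66.4% in the 3 H3K27ac lists and under 0.25% in both phospho-CREB lists, and lay below liver-shared sites in every list.

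Liver acetylation was found at most hepatocyte-only sites, but less often than at liver-shared sites. In at least 1 of the 3 H3K27ac lists lay 68.8% of the hepatocyte-only sites (9201 sites, 95% Wilson interval 68.0 to 69.6), against 88.1% of the liver-shared sites (87.2 to 88.8) and 61.2% of all sites of the glucagon list. The difference of hepatocyte-only minus liver-shared sites was -19.2 percentage points (95% Newcombe interval -20.3 to -18.1). Here and below such intervals cover counting error only, and neighbouring regions are not independent. The fed liver list held 56.7% of the hepatocyte-only sites, against 77.4% of the liver-shared sites and 49.8% of all sites. The 10 h fasted list held 66.4%, against 85.8% and 59.0%, and the 24 h fasted list held 56.9%, against 79.7% and 50.5%. The deficit was present in each of 3 density classes. With the glucagon list split into 3 classes of like size by density, 63.1% of hepatocyte-only and 80.7% of liver-shared sites of the least dense class were acetylated. In the densest class the shares were 70.2% and 88.9%. Among sites wider than 714 bp they were 71.9% and 89.6%.

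The acetylated regions that held hepatocyte-only sites were among the broader and denser ones of their lists. In 24 h fasted liver 7606 hepatocyte-only sites fell in 6891 regions with a median width of 1450 bp, while the median width of all regions of that list was 798 bp. Counted per site, those regions stood at a median percentile of 75.8 of the list by density, against 80.4 for the regions at liver-shared sites. In fed liver the median percentiles were 74.7 for hepatocyte-only and 77.9 for liver-shared sites, and at 10 h they were 80.6 and 83.6. The part of region width in this was not tested. The 4168 hepatocyte-only sites outside all 3 H3K27ac lists were mostly far from acetylation. Their nearest H3K27ac region lay at a median distance of 12125 bp, and for 499 of them (12.0%) within 1000 bp.

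The 5 hepatocyte-only sites in the densest H3K27ac regions of 24 h fasted liver had regions with densities of 226.0 to 348.0 in that list. The leading one lay on chromosome 11 from 3023557 to 3024447 (mm9). Its H3K27ac density was 310.8 in fed, 418.6 in 10 h fasted and 348.0 in 24 h fasted liver. The 10 h and 24 h values were the highest of their lists. Its CREB density was 142.8 in untreated cells, 82.7 with glucagon and 104.8 with both hormones, and it overlapped no GR site. Regions in repeated sequence were not filtered out, and the part of repeats in so densely acetylated a site was not tested. The second lay on chromosome 1 from 177562146 to 177562574, with H3K27ac densities of 197.9 in fed, 60.4 in 10 h fasted and 279.4 in 24 h fasted liver, and a liver CREB site only 23 bp away. The third lay on chromosome 8 from 126335166 to 126335701, with 255.5 in fed, 64.5 in 10 h fasted and 257.3 in 24 h fasted liver. Of the 5 sites, only the fourth, on chromosome 4 from 141101691 to 141102712, overlapped a GR site. The nearest liver CREB site was 348 bp from the third, 321 bp from the fourth, 585 bp from the fifth and 21195 bp from the leading site. The normalisation of the densities is not stated, so the values describe each list and not a change with fasting.

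Across the fasting course, all 3 lists held 6959 hepatocyte-only sites (52.1%), against 74.6% of the liver-shared sites and 46.1% of all sites of the glucagon list. The next most frequent pattern was acetylation in the 10 h list alone, at 1090 sites (8.15%), against 6.38% of the liver-shared sites. The 10 h list is the longest of the 3, with 47777 regions, and has the lowest z-score limit, 7.72 against 10.9 for fed and 8.61 for 24 h fasted liver. Acetylation at 24 h but not in fed liver was found at 537 hepatocyte-only sites (4.02%), against 4.29% of the liver-shared sites. Acetylation in fed liver but not at 24 h was found at 505 hepatocyte-only sites (3.78%), against 2.01% of the liver-shared sites.

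GR sites were more frequent at hepatocyte-only sites acetylated at 24 h but not in fed liver than at those with the reverse. Of the 537 sites acetylated at 24 h but not in fed liver, 135 were at a GR site (25.1%, interval 21.7 to 29.0). Of the 505 sites acetylated in fed liver but not at 24 h, 56 did (11.1%, 8.64 to 14.1). The difference was 14.1 percentage points (9.43 to 18.6). The first set was somewhat higher in median CREB density, 11.3 against 10.2, and in median width, 611 against 581 bp. The part of density and width in the GR difference was not tested. The liver-shared sites had the same order of GR shares, with 28.8% of 264 sites and 14.5% of 124 sites. By single pattern, GR was found at 27.7% of the hepatocyte-only sites acetylated at 10 and 24 h only and at 25.4% of those acetylated at 10 h only. At sites acetylated at 24 h only it was found at 17.9% (25 of 140 sites), so the higher shares were those of the patterns that include 10 h and not fed. It was found at 905 of the 6959 sites acetylated throughout and at 19.5% of those acetylated in no list. The lowest share, 6.33% (5 of 79 sites, 2.73 to 14.0), was at sites acetylated in fed liver only.

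**Figure D2:**
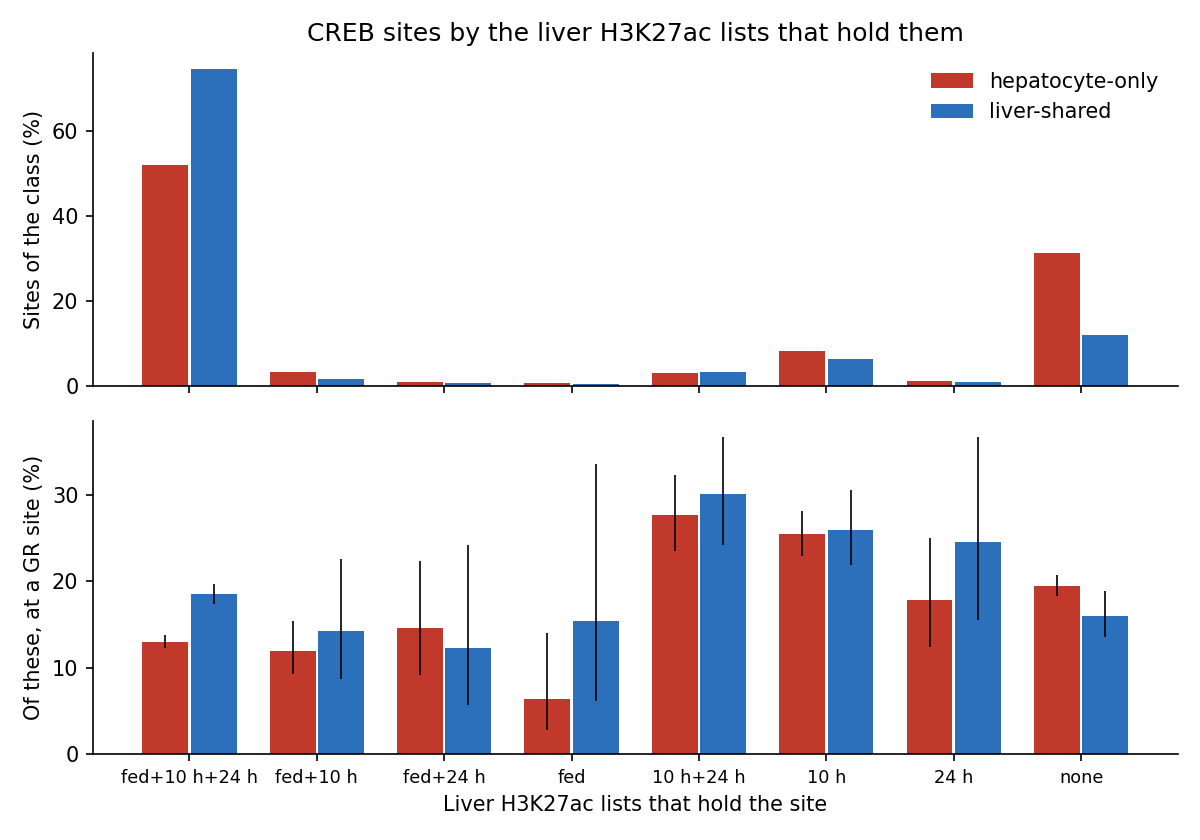
Upper panel, percent of hepatocyte-only and liver-shared CREB sites held by each combination of the fed, 10 h and 24 h fasted liver H3K27ac lists. Lower panel, percent of the sites of each combination that overlap a GR site, with 95% Wilson intervals; hepatocyte-only sites acetylated at 10 h only (25.4%) or at 10 and 24 h (27.7%) stood above those acetylated throughout (905 of 6959).

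Over the whole set, GR was about as frequent at hepatocyte-only sites as in the whole list. A GR site of the cells with both hormones was found at 2200 hepatocyte-only sites (16.5%, interval 15.8 to 17.1), against 1170 liver-shared sites (19.0%) and 15.4% of all sites of the glucagon list. The difference of hepatocyte-only minus liver-shared sites was -2.53 points (-3.71 to -1.38), and its sign turned when only denser sites were kept. It was 4.66 points with the upper 50% of each list and 6.60 points with each hepatocyte CREB list reduced to its 13142 densest sites. The GR sites met there stood at a median percentile of 76.3 of the GR list by density, against 82.8 at liver-shared sites and 76.3 at all sites of the glucagon list, so their strength did not set the hepatocyte-only sites apart from the whole list. Of all 11892 GR sites, 18.8% overlapped a hepatocyte-only site, 10.4% a liver-shared site and 37.1% any site of the glucagon list. In the densest decile of the GR list, with 1196 sites, these shares were 38.2% (457 sites), 35.0% (419 sites) and 82.8%. The median distance between GR and CREB midpoints was 54 bp for hepatocyte-only sites, 64 bp for liver-shared sites and 56 bp for all GR-sited sites of the glucagon list. The midpoints were within 100 bp for 69.7%, 64.0% and 68.7% of them, so here too the hepatocyte-only sites were close to the whole list.

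**Figure D3:**
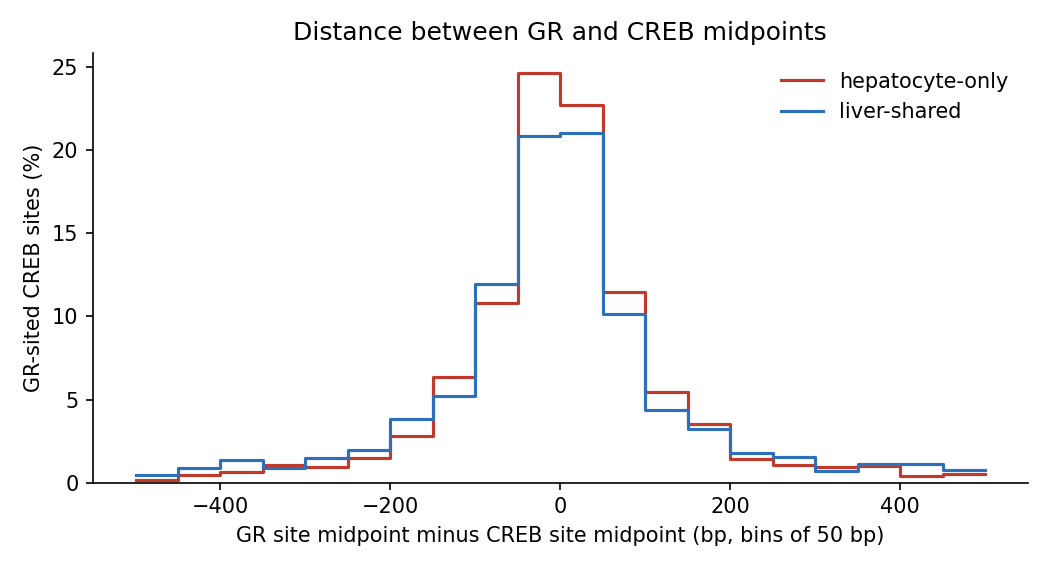
Distance from the CREB site midpoint to the GR site midpoint in bins of 50 bp, as percent of the GR-sited hepatocyte-only (n = 2200) and liver-shared (n = 1170) CREB sites. Both distributions peaked at the CREB midpoint, and 69.7% of the hepatocyte-only and 64.0% of the liver-shared sites had a GR midpoint within 100 bp.

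The share of hepatocyte-only sites at GR differed steeply with CREB density. In the densest decile of the glucagon list GR was found at 332 of 422 hepatocyte-only sites (78.7%, interval 74.5 to 82.3). It was found at 559 of 2348 liver-shared sites (23.8%, 22.1 to 25.6) and at 32.9% of all sites of that decile. The difference was 54.9 points (50.3 to 58.9). In decile 9 the shares were 34.7% of hepatocyte-only and 19.5% of liver-shared sites, and in decile 8 they were 20.1% and 12.6%. In decile 5 the order was the other way, with 8.42% of 1818 hepatocyte-only sites and 14.3% of 223 liver-shared sites. The least dense decile again had more GR, 25.5% of 306 hepatocyte-only and 47.2% of 36 liver-shared sites. GR shares differed with width too. Over 3 width classes of like size, from narrow to wide, they were 6.32%, 12.0% and 30.7% of hepatocyte-only sites. For liver-shared sites they were 7.93%, 13.4% and 20.9%. Sites of the densest decile were also wide, with a median of 972 bp for hepatocyte-only and 1126 bp for liver-shared sites. With the overlap restricted to 500 bp windows around the midpoints the difference in that decile was 55.1 points.

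Acetylation of hepatocyte-only sites was highest in the middle of the density range and lower at both ends. It stood at 59.2% in the least dense decile and 58.6% in decile 2. In the densest decile 53.6% of the hepatocyte-only sites (226 of 422, interval 48.8 to 58.3) lay in an H3K27ac region of any liver list, against 74.5% in decile 7. Liver-shared sites stood at 89.1% in the densest decile and at 88.7% in decile 7, and all sites of the glucagon list at 82.4% and 72.7%. Of the strong hepatocyte-only sites, those of the densest decile, 163 of 422 (38.6%) had GR and no liver H3K27ac. This kind made up 57 of 2348 liver-shared sites (2.43%) of the same decile. GR with H3K27ac in all 3 lists was found at 112 of the strong hepatocyte-only sites (26.5%) and at 434 of the strong liver-shared sites (18.5%). GR with H3K27ac in 1 or 2 lists was found at 57 (13.5%) and 68 (2.90%). H3K27ac in all 3 lists without GR was found at 47 (11.1%) and 1381 (58.8%).

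**Figure D4:**
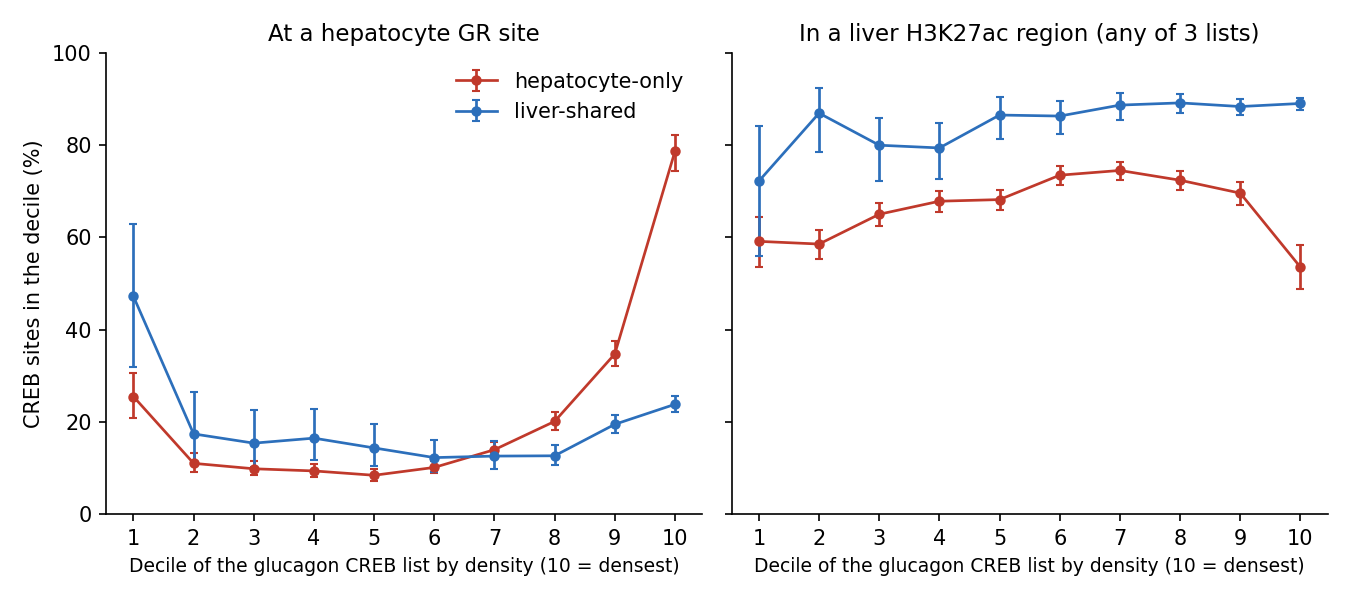
Percent of hepatocyte-only and liver-shared CREB sites that overlap a hepatocyte GR site (left) or a liver H3K27ac region of any of 3 lists (right), by decile of tag density in the glucagon CREB list, with 95% Wilson intervals. At the densest decile the GR share was 78.7% for hepatocyte-only and 23.8% for liver-shared sites, and the H3K27ac share 53.6% and 89.1%.

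All 10 of the densest hepatocyte-only sites overlapped a GR site. The densest, on chromosome 17 from 39979676 to 39985961, stood apart by its width of 6286 bp, the greatest of all hepatocyte-only sites. Its CREB density was 147.3 in the untreated, 275.1 in the glucagon and 115.3 in the glucagon plus corticosterone list, its GR density of 214.8 ranked 3 of 11892, and it lay in no H3K27ac region. Regions in repeated sequence were not filtered out, and the part of repeats in so wide and dense a site was not tested.

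The second, on chromosome 3 from 58038537 to 58039743, had CREB densities of 24.7 untreated, 201.7 with glucagon and 406.0 with both hormones. It ranked 6436 of 47596, 108 of 28229 and 93 of 42090 in those lists. It had a GR density of 86.1 and lay in H3K27ac regions with densities of 51.8 in fed, 74.7 in 10 h fasted and 51.0 in 24 h fasted liver. The third lay on chromosome 8 from 11097939 to 11099184 and the eighth nearby from 11172714 to 11173984. Their CREB densities were 53.3 and 49.6 untreated, 171.0 and 146.0 with glucagon, and 338.6 and 304.7 with both hormones. Neither lay in an H3K27ac region.

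The fourth, on chromosome 3 from 137923431 to 137924618, had CREB densities of 39.1 untreated, 157.5 with glucagon and 326.1 with both hormones, was in no H3K27ac list, and had a liver CREB site 820 bp away. The sixth, on chromosome 4 from 7122513 to 7124626, had 22.4 untreated, 154.7 with glucagon and 603.8 with both hormones, where it ranked 22 of 42090. It was acetylated in all 3 liver lists at low density, 12.8 in fed, 19.0 in 10 h fasted and 17.3 in 24 h fasted liver. The tenth, on chromosome 15 from 62168080 to 62169877, was in the 10 h and 24 h fasted H3K27ac lists, with densities of 8.25 and 6.38, and not in the fed list. Apart from the wide site on chromosome 17, each of the 10 ranked between 2234 and 12160 in the untreated list and between 22 and 492 in the list of both hormones.

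The order of the hepatocyte-only sites by density differed between the 3 hepatocyte lists according to GR. Each of the 13369 sites has a density in each list, and its percentile among these same sites can be compared without a common scale for the lists. Where a site overlapped several sites of another list, the densest was taken. In the untreated list the 2200 GR-sited ones had a median percentile of 48.6 and the 11169 others 50.1. In the glucagon list the medians were 75.1 and 46.6, and in the list of both hormones 86.1 and 44.0. Above the median of all hepatocyte-only sites lay 49.3% of the GR-sited ones in the untreated list (interval 47.2 to 51.4), 69.4% in the glucagon list (67.4 to 71.3) and 83.3% in the list of both hormones (81.7 to 84.8). By their medians, GR-sited ones thus stood near the middle of the untreated list and high in the lists of both treatments. In the untreated list they reached further down, with a lower quartile at percentile 17.7 against 25.8 for the others. The upper quartiles were 75.5 and 74.9. The GR list comes from cells given both hormones and the untreated CREB list from 1 library, and the part of library differences in this order was not tested.

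Site by site, the percentile increased in both steps, untreated to glucagon to both hormones, at 932 of the 2200 GR-sited hepatocyte-only sites (42.4%, interval 40.3 to 44.4). It did so at 1271 of the 11169 others (11.4%, 10.8 to 12.0). The percentile decreased in both steps at 138 GR-sited ones (6.27%) and at 3005 others (26.9%). Percentiles are relative, so an increase at some sites lowers others by construction. Liver-shared sites had this order too, with an increase in both steps at 58.8% of 1170 GR-sited ones and 6.65% of 4991 others. In the untreated list, however, the GR-sited liver-shared sites had a median percentile of 33.0 among liver-shared sites, against 54.9 for the others.

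The densest hepatocyte-only sites thus held different shares of GR depending on the list that ranked them. Of the densest decile of hepatocyte-only sites, 17.3% were at GR when ranked in the untreated list (231 of 1338), 50.4% when ranked in the glucagon list (678 of 1344) and 68.5% when ranked in the list of both hormones (916 of 1337). For the densest decile of liver-shared sites these shares were 6.32%, 24.3% and 37.6%. At the low end, 29.2% of the least dense hepatocyte-only decile in the untreated list were at GR, against 13.9% in the glucagon list and 6.06% in the list of both hormones. Acetylation was found at 81.8% of the densest hepatocyte-only decile of the untreated list, at 64.1% of that of the glucagon list and at 65.7% of that of both hormones.

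**Figure D5:**
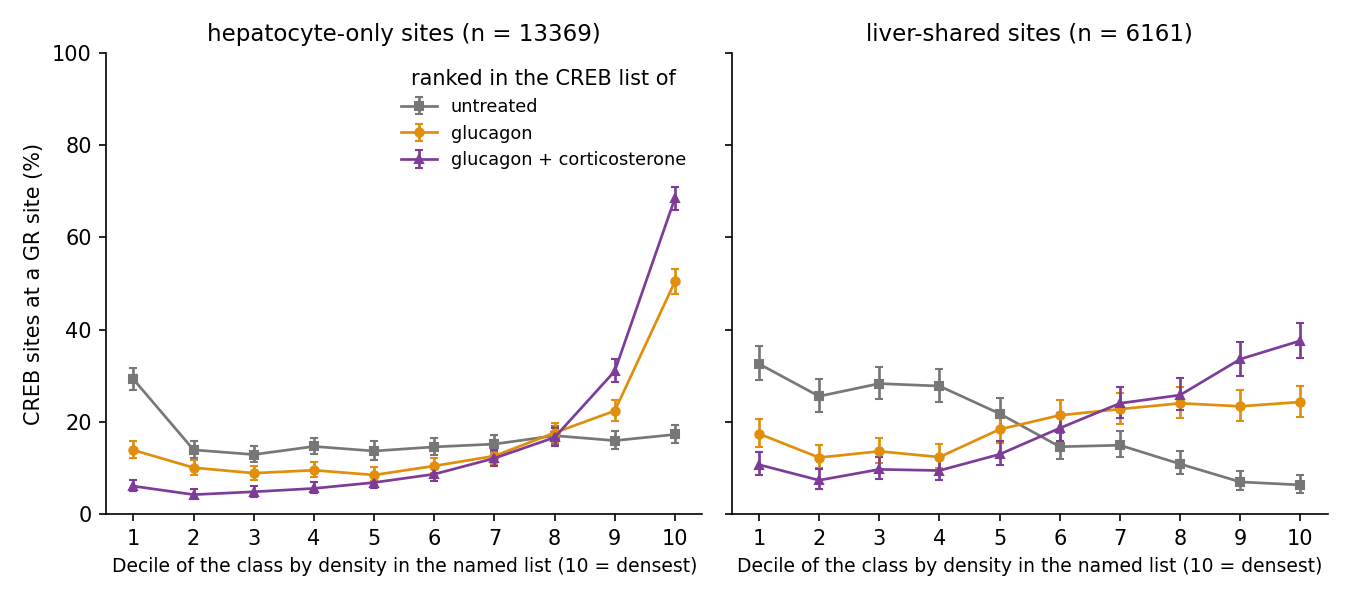
Percent of hepatocyte-only (left) and liver-shared (right) CREB sites at a GR site, by decile of the class ranked by density in the untreated, glucagon or glucagon plus corticosterone CREB list, with 95% Wilson intervals. For hepatocyte-only sites the densest decile held 17.3% GR-sited ones in the untreated, 50.4% in the glucagon and 68.5% in the list of both hormones.

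Phosphorylated CREB was examined in liver only, not in hepatocytes, and was almost never listed at hepatocyte-only sites. A phospho-CREB site of 24 h fasted liver overlapped 30 of them (0.224%), against 10.9% of the liver-shared sites and 3.23% of all sites. A phospho-CREB site of fed liver overlapped 32 (0.239%), against 23.7% and 6.06%. In either list there were 55 (0.411%, interval 0.316 to 0.535), against 24.9% of the liver-shared sites and 6.66% of all sites. The rule bars liver CREB sites and so lowers this share by construction. It leaves room for phospho-CREB, as 3187 of 6812 phospho-CREB sites of fasted liver (46.8%) and 3170 of 7669 of fed liver (41.3%) lay at no liver CREB site, and 29 of each of these lay at a hepatocyte-only site.

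The 55 exceptions were weak in hepatocytes, with a median density of 8.48 in the glucagon list, and often at GR. GR was found at 38 of them (69.1%, interval 56.0 to 79.7), against 277 of the 1532 liver-shared sites with phospho-CREB (18.1%). H3K27ac was present at 37, of which 22 in the 10 h list alone. The fasted list alone held 23 of the 55, the fed list alone 25, and both lists 7. Among these 7, the one with the densest CREB was on chromosome 8 from 3046075 to 3050212 over 4138 bp. Its phospho-CREB density was 7.78 in 24 h fasted and 5.11 in fed liver, its CREB density 8.58 untreated, 20.7 with glucagon and 62.9 with both hormones, and its GR density 20.8. The part of repeats in so wide a site was not tested. The second lay on chromosome 4 from 150243741 to 150244094 with phospho-CREB densities of 24.2 in fasted and 18.1 in fed liver, a GR density of 16.2 and no H3K27ac.

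GR density itself singled out another group of sites. Of the 5 hepatocyte-only sites with the densest GR, 1 was the wide site on chromosome 17. The next, on chromosome 4 from 32401530 to 32402758, had a GR density of 147.9, which ranked 11 of 11892. Its CREB density was 20.5 untreated, 75.3 with glucagon and 508.8 with both hormones, and its ranks were 8619, 968 and 38. The site on chromosome 6 from 38785061 to 38785893 had a GR density of 115.8 and CREB densities of 16.7 untreated, 47.2 with glucagon and 247.8 with both hormones. Neither lay in an H3K27ac region, and the site on chromosome 3 from 146320036 to 146320994, with a GR density of 123.4, did not either. The third by GR density, on chromosome 13 from 55287027 to 55292630, had a GR density of 139.6, which ranked 13 of 11892. It was 5604 bp wide and acetylated in all 3 liver lists, with densities of 52.0 in fed, 47.3 in 10 h fasted and 56.4 in 24 h fasted liver. It overlapped a phospho-CREB site of fed liver with a density of 2.98, and a liver CREB site lay 764 bp away. The part of repeats in so wide a site was not tested.

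A final group of 3353 hepatocyte-only sites overlapped none of the GR, phospho-CREB and H3K27ac lists. They were weak, with a median density of 9.90 and a median width of 571 bp. The densest lay on chromosome 3 from 5860175 to 5861073, with CREB densities of 41.5 untreated, 116.6 with glucagon and 48.2 with both hormones, and the nearest liver CREB site was 21830 bp away. The second, on chromosome 16 from 11143839 to 11144557, had 53.0 untreated, 111.2 with glucagon and 36.3 with both hormones. The third, on chromosome 6 from 3150444 to 3151884, had 33.2 untreated, 96.8 with glucagon and 38.4 with both hormones. The fourth, on chromosome 17 from 24977698 to 24978609, had 35.9 untreated, 63.7 with glucagon and 100.9 with both hormones. The fifth had 19.9 untreated, 56.6 with glucagon and 82.0 with both hormones. The normalisation of the densities is not stated, so these values set no order between the lists. By rank, the 5 sites stood at 429, 470, 625, 1213 and 1462 of 28229 in the glucagon list. Their ranks were 3976, 5600, 5240, 1492 and 2001 of 42090 in the list of both hormones. In the untreated list they were 3083, 2246, 4142, 3733 and 8982 of 47596. The lists differ in length and the 5 sites were chosen by glucagon density, so a common order was not tested.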

How the data were processed

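Peak lists of chromatin immunoprecipitation from mouse liver and hepatocytes were used as deposited. No region was removed for lying in repeated or poorly mappable sequence, so such regions may be among the named sites. Of 13 lists, 11 were matched to 11 of the 15 groups of the 38 samples through library numbers in the list names and sample descriptions. No sample could be tied to 2 further lists (8 value columns), which are of phospho-CREB in hepatocytes. They were left unused, so phospho-CREB is described from liver only. A further 4 groups were not analysed here. Per the submitters' processing notes CASAVA 1.8 and build mm9 were used, and hotspot stands in the names of the lists. The names of the H3K27ac lists speak of pooled libraries, those of the other lists of a pair of libraries, which for untreated CREB is 1 library against itself. For CREB and phospho-CREB of liver a pair is named although each group has 3 samples. Whether all 3 went into these lists is not stated.

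Per the file headers, the authors give each region a highest and an average tag density (a signal of unstated normalisation), a z-score and a p-value, and the deposited p-values were not used. Densities and scores are the authors' own and served only to describe and rank regions within a list, or the same sites within each list.

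An overlap needed at least 1 base, with both ends counted. Whether the deposited positions start at 0 or 1 is not stated, and they are printed as given. Shares have 95% Wilson and differences 95% Newcombe intervals for counting error. Simulated lists with known overlaps served to test the code. Named sites were the 10 densest and the 5 densest of each other set, by a written rule, less those on 1 chromosome. Where named sites are called the densest, sites of that chromosome are not counted. The members and comparisons were chosen with earlier results of these data known. Without a genome or gene annotation of build mm9 no gene, distance to a start site, motif or sequence is given, so the gene lists and motif searches planned were not run. Alternatives were other overlap rules, shorter lists, 500 bp windows, and removal of chromosomes X and Y. Added after the data were seen were ranking by z-score or average density, and every alternative for the GR shares of the densest decile, for the 24 h against fed acetylation split and for the percentiles. Python 3.11.15, numpy 2.4.6, pandas 2.3.3 and matplotlib 3.10.9 were used.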

Additional observations from a re-analysis of the deposited data

How the results depend on the processing

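Of 75 values recomputed for 13 results, 49 stayed within the interval (for the number of sites, within 1.5 times) of the value reported, and the signs of differences held except for GR overall. With the upper 50% of each list there were 6909 hepatocyte-only sites, with GR at 21.8% and H3K27ac at 66.4%. With hepatocyte CREB lists of 13142 sites there were 3714, with GR at 25.1%, phospho-CREB at 0.242% and H3K27ac at 76.5%. Under these 2 settings in turn, the differences of hepatocyte-only minus liver-shared sites were 4.66 and 6.60 points for GR, -28.6 and -28.5 for phospho-CREB, -15.5 and -12.7 for H3K27ac and, in the densest decile, 67.7 and 65.7 for GR, where the GR share was 90.6% and 88.9%. Both settings keep denser sites by construction. The GR difference between sites acetylated at 24 h and not in fed liver and the reverse was 9.25 points with the upper 50%. With 50% of the shorter region shared H3K27ac was at 63.3%, a difference of -22.3 points. With a gap of 500 bp GR was at 17.7%, phospho-CREB at 0.596% and H3K27ac at 70.8%. Ranked by z-score, 54.3%, 79.5% and 89.0% of GR-sited hepatocyte-only sites lay above the median in the untreated, glucagon and both-hormone lists, and the cause was not tested. No paired analysis was possible because each group has 1 list and no result comes from a test. Depth is unknown, and the liver lists are shorter than the hepatocyte lists, so weak sites may be missing from liver through thresholds alone.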

Other observations

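Hepatocyte-only sites were spread over all 21 chromosomes with values in the lists, but unevenly on the sex chromosomes. They made up 44.4 to 51.3% of the glucagon sites of each autosome, 31.0% on chromosome X (229 of 738 sites) and 11.1% on chromosome Y (2 of 18 sites). Of the chromosome X sites in all 3 hepatocyte lists, 58.7% were hepatocyte-only. Among autosomes this share was lowest on chromosome 17, at 63.5%, and highest on chromosome 15, at 71.8%. The share of hepatocyte-only sites at GR was 11.9% on chromosome 11 and 22.1% on chromosome 13, the ends of the range over the autosomes.

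Hepatocyte-only sites lay closer to each other than liver-shared sites did, and there were more of them, 13369 against 6161. The part of number in this was not tested. The nearest other hepatocyte-only site was at a median distance of 17012 bp, and within 10000 bp for 5411 sites (40.5%). For liver-shared sites the median distance to the nearest of their kind was 50602 bp, and 1214 sites (19.7%) had one within 10000 bp.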
